A study of Mus musculus with 8 samples.

Results

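Spleen regulatory T (Treg) cells that carried the receptor TIM-3 from a transgene were compared with Treg cells of mice without it, over all genes. The comparison takes 5 of the series' 8 RNA sequencing libraries: 3 of TIM-3+ FLAG+ GFP+ FoxP3+ CD4 cells, from Foxp3-eGFP-Cre-ERT2 mice crossed to FSF-TIM-3 (GFPhi), and 2 of TIM-3- FLAG- GFP+ FoxP3+ CD4 cells, from mice with Foxp3-eGFP-Cre-ERT2 alone (WT). The third group of the series, 3 libraries of TIM-3+ FLAG+ GFP- FoxP3- CD4 cells of the crossed mice (GFPlow), entered the statistical fit and is otherwise given only for reference. Mice of both genotypes received tamoxifen on 5 consecutive days, so the reporter, the Cre recombinase and the drug are shared by GFPhi and WT. In these mice eGFP and a tamoxifen-activated Cre are made from the Foxp3 gene, so Cre is active where Foxp3 is transcribed. The gates of GFPhi and WT differed in TIM-3 and FLAG as well as in genotype, so what the transgene does and what the gates select cannot be told apart. The labels number the libraries M1 to M3, WT1 and WT_2 and say nothing further on separate animals, so p-values measure the spread between these samples. The question, from the title of the series, is how TIM-3 affects Treg gene expression.

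TIM-3 is a surface receptor of activated T cells and of several innate immune cells, and it is studied chiefly as a co-inhibitory receptor on exhausted and T helper 1 cells. Treg cells depend on the transcription factor FoxP3 and restrain other T cells through receptors such as CTLA-4, through consumption of IL-2 and through cytokines such as IL-10. Effector Treg cells, the antigen-experienced form, can take up part of the programme of the helper cells they restrain, for example the T helper 1 factor T-bet with the chemokine receptor CXCR3.

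Total counts ran from 44446215 to 55388756 per library over all 8. WT library 1 stood apart: 18599 genes had a count in it, against 21320 to 22185 in the 3 GFPhi libraries and 21549 in WT library 2. Of its counts 6.54% were mitochondrial and 16.2% came from cytoplasmic ribosomal protein genes, against 2.35% to 2.78% and 6.77% to 7.62% in the other 7, and its 100 most abundant genes held 35.4% of its counts. Pearson correlations of log2 CPM across genes were 0.874 to 0.885 between WT library 1 and the other 4 libraries compared and 0.954 to 0.963 among those 4. WT library 2 held both Xist (242.1 CPM), the RNA of the inactive X chromosome, and the Y-linked Ddx3y (6.15 CPM). GFPhi libraries 1 and 2 held Ddx3y at 193.7 and 200.5 CPM with Xist at 0.187 and 0.263, GFPhi library 3 held Xist at 236.6 CPM with no Ddx3y count, and WT library 1 held Ddx3y at 170.2 CPM with no Xist count.

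Because the WT libraries differed this much, each gene was set against each of them separately. CPM here are counts relative to the library total after TMM scaling, a trimmed-mean correction of that total. They are not per length, so levels are compared between libraries and not between genes. A difference is the mean log2 CPM of the 3 GFPhi libraries minus that of 1 WT library, with a prior count of 2. A gene met the 2-fold rule when the 3 GFPhi libraries fell all above or all below the 2 WT libraries and the difference was at least 1, a 2-fold change, from each. This rule is a description with no test. Of 18851 genes tested, 956 met it (5.07%), 599 as higher (3.18%) and 357 as lower (1.89%). Most of these were sparse: among the 11847 genes with a mean of at least 2 CPM over the 5 libraries, 85 were higher (0.72%) and 50 lower (0.42%), against 7.34% and 4.38% of the genes under that level. The shares of all genes set beside gene lists below are not matched for level. Against WT library 1 alone 32.6% of genes were 2-fold higher and 22.7% lower, and against WT library 2 alone 7.89% and 7.37%. The WT libraries differed from each other by 2-fold in 21.9% of genes (library 1 higher) and 30.3% (library 1 lower). With WT library 1 left out, the counts became 1048 higher and 1076 lower. With WT library 2 left out they became 5447 and 4171. With library totals in place of TMM factors, the 85 and 50 genes at 2 CPM or more became 105 and 26.

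**Figure D1:**
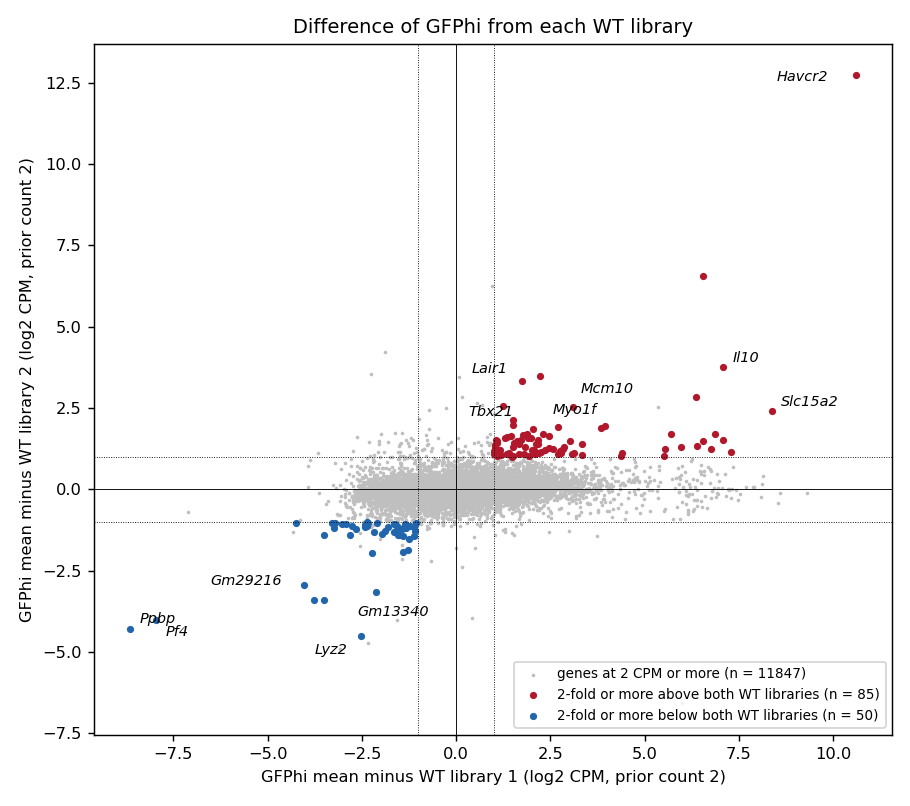
Each point is 1 of the 11847 genes with a mean of at least 2 CPM, placed by its difference from WT library 1 (x axis, log2 CPM) and from WT library 2 (y axis, log2 CPM), with dotted lines at 2-fold. The cloud is far wider along the axis of WT library 1, and the 85 red and 50 blue genes are those that met the 2-fold rule.

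No gene passed edgeR's quasi-likelihood test of GFPhi against WT after Benjamini-Hochberg adjustment at 0.05 (0% of 18851), with 2588 genes (13.7%) at an unadjusted p under 0.05. Against WT library 1 alone, with its spread taken from the GFPhi and GFPlow libraries, the same test called 8297 genes (44%), of which 4900 were higher and 3397 lower. With library totals in place of TMM factors that split was 7186 higher and 1829 lower. Against WT library 2 alone it called 0 genes, and 978 (5.19%) had an unadjusted p under 0.05. DESeq2 called 6 genes higher (0.0318% of the 18851) and 314 lower (1.67%) in GFPhi against WT. This contrast is with the mean of the WT group, so a call does not require a difference from each WT library. DESeq2's own filter on low counts left many genes without an adjusted p-value there, among them Foxp3, Tbx21, Il10, Myo1f and Lair1. For such genes the lack of a call is no result, and the split of calls covers only the more abundant genes. DESeq2 without WT library 1 called 62 higher (0.302% of 20545) and 10 lower (0.0487%). In that fit the WT arm is 1 library, assumed to vary like the GFPhi and GFPlow libraries, and edgeR without WT library 1 called 0. Limma voom with sample quality weights called 0, with 288 at an unadjusted p under 0.05. Of the 61 genes that DESeq2 called higher without WT library 1 and that were also among the 18851, all 3 GFPhi libraries lay above WT library 1 as well in 48, and 27 met the 2-fold rule against both. Of 9 called lower, 9 lay below WT library 1 too, and 1 met the 2-fold rule.

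Havcr2, which encodes TIM-3, was read first as a check of the labels (ENSMUSG00000020399, GRCm38 chromosome 11, 46454935 to 46481255). It stood at 1524.4, 1076.8 and 1790.6 CPM in GFPhi libraries 1 to 3, against 0.876 and 0.172 CPM in WT libraries 1 and 2, where 27 and 10 reads were counted. GFPhi was far above both WT libraries, by 10.61 and 12.72 on the log2 scale, as the gate selects. Even this gene did not pass edgeR's test (log2 fold change 11.56 ± 1.13, SE, adjusted p = 0.121), and the absence of a call does not show that a gene is alike in both groups. Foxp3, the lineage factor and the source of the reporter, stood at 60.1, 68.1 and 80.9 CPM in GFPhi, against 41.6 and 63.2 in WT (adjusted p = 0.578). GFPhi library 1 lay below WT library 2 and the groups overlapped. Other T cell and Treg markers were present in every library: Cd3e ran from 190.0 to 472.2 CPM, Cd4 from 109.3 to 308.8, the IL-2 receptor gene Il2ra from 517.2 to 662.2 and Ctla4 from 303.0 to 435.2. The lowest values of these 4 genes were those of WT library 1. Adjusted p-values in what follows are edgeR's quasi-likelihood values over all 18851 genes. They ran from 0.121 to 0.493 for the 85 higher genes at 2 CPM or more and from 0.348 to 0.464 for the 50 lower ones.

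Promoters were read for genes that met the 2-fold rule, from RefSeq (GRCm38.p6), whose table held 13972 promoters of 10990 tested genes in a window of 250 bases before to 50 after the start. Motifs were sought on both strands: the T-box core TCACACC, the forkhead core TGTTTAC, an E2F site TTTNNCGC and the Runx core TGTGGT. The last 2 were added after the values were seen, and the T-box and Runx cores can share bases. Among the 76 promoters of higher genes at 2 CPM or more, the T-box core occurred in 1.3% and the forkhead core in 1.3%, against 3.6% and 2.6% of all promoters. The E2F site occurred in 9.2% against 7.8% of all, and the Runx core in 22.4% against 13.7%. Over the promoters of higher and of lower genes at any level the shares were 4.5% and 5.3% for the T-box core, 2.0% and 0.6% for the forkhead core, 7.2% and 6.5% for the E2F site and 16.5% and 17.2% for the Runx core. The T-box and E2F shares thus lay on opposite sides of the share of all promoters in the higher sets with and without the 2 CPM minimum. Among the 26 promoters of lower genes at that level the shares were 0.0% for the T-box, forkhead and E2F motifs and 15.4% for Runx. A match says only that these letters lie in the window. The 250 bases before the start are shown for 3 of the higher genes, Espl1 for the E2F site and Myo1f and Cxcr6 for the Runx core, 5′ to 3′ on the gene's own strand, with matches on either strand in capitals. They are Espl1 at chr15:102296043-102296292, Myo1f at chr17:33555457-33555706 and Cxcr6 at chr9:123806227-123806476, all on the + strand.
Espl1: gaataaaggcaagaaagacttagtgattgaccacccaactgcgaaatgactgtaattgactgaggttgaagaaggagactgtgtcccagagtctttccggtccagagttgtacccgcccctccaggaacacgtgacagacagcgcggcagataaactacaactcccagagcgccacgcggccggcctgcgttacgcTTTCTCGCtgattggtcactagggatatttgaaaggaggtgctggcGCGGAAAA
Myo1f: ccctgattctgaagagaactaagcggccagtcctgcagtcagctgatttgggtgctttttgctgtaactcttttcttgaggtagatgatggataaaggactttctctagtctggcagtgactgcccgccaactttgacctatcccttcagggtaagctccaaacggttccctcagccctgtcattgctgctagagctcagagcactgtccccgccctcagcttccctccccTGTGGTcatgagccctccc
Cxcr6: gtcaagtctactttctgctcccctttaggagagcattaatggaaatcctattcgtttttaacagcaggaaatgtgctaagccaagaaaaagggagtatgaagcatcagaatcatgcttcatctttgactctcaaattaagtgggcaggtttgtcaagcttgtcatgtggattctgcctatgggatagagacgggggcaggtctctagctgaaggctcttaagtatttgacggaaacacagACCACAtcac
The Espl1 window holds the E2F site at -54 on the gene's strand and at -8 on the other strand. The Runx core starts at -19 in Myo1f on the gene's strand and at -10 in Cxcr6 on the other strand. In the 250 bases before the start of Tbx21 none of the 4 motifs was found.

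Among the higher genes, those of T helper 1 regulation included the transcription factor genes Tbx21 and Eomes. Tbx21, which encodes T-bet, stood at 6.07, 7.56 and 4.48 CPM in GFPhi, against 1.59 and 1.78 in WT. All GFPhi values exceeded both WT values, and the differences were 1.87 and 1.71 on the log2 scale (log2 fold change 1.84 ± 0.32, SE, adjusted p = 0.348 by edgeR). Eomes, a related T-box factor of cytotoxic and memory T cells, stood at 3.8, 2.37 and 1.07 CPM in GFPhi, against 0.292 and 0.259 in WT (adjusted p = 0.348). The GFPlow libraries, for reference, held Tbx21 at 17.5, 15.3 and 18.1 CPM and Eomes at 10.4, 7.39 and 7.51 CPM. Of the 20 tested genes on the list of T helper 1 regulators and response genes, 2 met the 2-fold rule as higher (3.18% of all genes did) and 0 as lower, and edgeR called 0. All 3 GFPhi libraries lay above both WT libraries for 8 of the 20 (15.6% of all genes) and below both for 0 (12.6%). The list's median difference was 0.32 from WT library 1 and 0.38 from WT library 2, beside 0.25 and -0.01 over all genes. With 1 library left out, 8 to 11 members lay above the WT libraries, and without WT library 2 7 lay below. Cxcr3, the chemokine receptor that T-bet controls in Treg cells, stood at 112.9, 96.4 and 96.5 CPM in GFPhi, against 63.6 and 71.6 in WT. Il18r1, a subunit of the IL-18 receptor, stood at 26, 29.8 and 33.5 against 19.3 and 21.9 CPM. Both lay above either WT library in every GFPhi library by less than 2-fold. Il12rb1, Ifngr1, Ifngr2 and Tnf also lay above both WT libraries in every GFPhi library. From WT library 2 they differed by only 0.42, 0.33, 0.09 and 0.19 on the log2 scale. The remaining members overlapped between the groups. By mean, GFPhi was below WT library 1 for 7 members of the list and below WT library 2 for 3. Ifng, the gene of interferon gamma, stood at 12.8, 8.6 and 4.43 CPM in GFPhi, against 20.9 and 3.83 in WT. Ccl5 stood at 16.1, 27.7 and 21.3 against 121.5 and 20.5 CPM.

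Il10, the gene of the anti-inflammatory cytokine IL-10, stood at 7.83, 4.21 and 4.67 CPM in GFPhi, against 0 and 0.362 in WT. Against a floor of 3 counts in WT library 1, the GFPhi mean was at least 57.3-fold higher, and the difference from WT library 2 was 3.75 on the log2 scale (adjusted p = 0.348). GFPlow held it at 3.03, 9.59 and 3.45 CPM. Gzmb, the protease granzyme B of cytotoxic granules and of some effector Treg cells, stood at 8.6, 39.8 and 18.5 CPM in GFPhi, against 3.31 and 7.69 in WT. GFPhi library 1 lay just above WT library 2 and library 2 was the highest (adjusted p = 0.38). These were the 2 of 26 effector Treg genes that met the 2-fold rule as higher (3.18% of all genes did), with 0 lower and 0 called. Members above both WT libraries numbered 5, near the share of all genes (15.6%), and 2 lay below both (12.6% of all genes). The median difference was -0.11 from WT library 1 and 0.26 from WT library 2. On the list of cytokine and secreted factor genes Il10 was the 1 of 18 to meet the rule. There the medians were 0.22 and 0.22. Penk, which encodes proenkephalin, an opioid peptide precursor made by Treg cells, stood at 311.3, 343.5 and 217.6 against 212.7 and 191.5 CPM, above both WT libraries by less than 2-fold (adjusted p = 0.547).

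Cxcr6, a chemokine receptor of effector and tissue T cells, stood at 60.4, 91.7 and 53.5 CPM in GFPhi, against 32.3 and 26 in WT. The differences were 1.04 and 1.36 on the log2 scale, so it lay close to the 2-fold limit against WT library 1 (log2 fold change 1.23 ± 0.28, SE, adjusted p = 0.348 by edgeR). In GFPlow it stood at 182.7, 230.4 and 249.3 CPM. Among 28 genes of chemokine and homing receptors, Cxcr6 was the 1 that met the rule, 6 lay above both WT libraries and 0 below both, beside 3.18%, 15.6% and 12.6% of all genes. Their median difference was 0.96 from WT library 1 and 0.12 from WT library 2. Ccr9, the receptor of gut-homing T cells, stood at 15.1, 10.5 and 10.3 against 6.91 and 6.41 CPM, by 0.77 and 0.87 on the log2 scale.

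The co-inhibitory receptor list, which leaves out Havcr2, held 17 tested genes. Lair1, an inhibitory receptor for collagen, was the 1 that met the 2-fold rule as higher (3.18% of all genes did). It stood at 4.55, 3.74 and 3.83 CPM in GFPhi, against 1.17 and 0.362 in WT, with a GFPhi spread of 0.444 CPM (SD, n = 3). DESeq2 without WT library 1 called it (log2 fold change 3.48 ± 0.47, SE, adjusted p = 1.52e-09), and edgeR did not, either over all libraries (adjusted p = 0.348) or against WT library 2 alone (adjusted p = 0.31). GFPlow libraries held 12, 13.3 and 18.1 CPM. Lag3, an inhibitory receptor that binds MHC class II, stood at 4.29, 2.97 and 2.3 against 0.941 and 2.15 CPM, so GFPhi library 3 was close to WT library 2. The list's medians were 0.62 and 0.02.

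**Figure D2:**
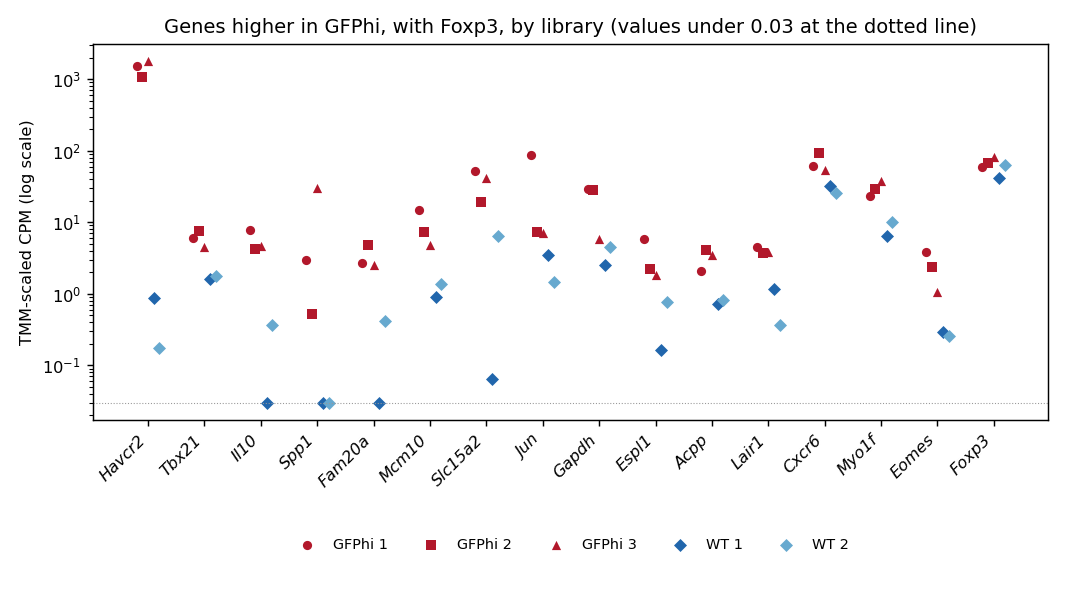
TMM-scaled CPM on a log axis for the 12 named higher genes with the largest differences and for Cxcr6, Myo1f, Eomes and Foxp3, by library (red, GFPhi libraries 1 to 3; blue, WT libraries 1 and 2). Red points lie above both blue points for every gene except Foxp3, and Spp1 and Jun show 1 GFPhi library far above the other 2.

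Myo1f encodes an unconventional myosin of leukocytes that links membranes to actin. It stood at 22.9, 29 and 37.1 CPM in GFPhi, against 6.45 and 10.1 in WT. Every GFPhi library was more than double the higher WT library, and the differences were 2.17 and 1.53 on the log2 scale (edgeR log2 fold change 1.84 ± 0.30, SE, adjusted p = 0.348; DESeq2 without WT library 1, adjusted p = 4.42e-05). GFPlow held it at 55.6, 60.5 and 73.1 CPM. Its relative Myo1d stood at 5.08, 3.91 and 3.33 CPM in GFPhi, against 0.649 and 1.71 in WT (adjusted p = 0.493). GFPlow held Myo1d at 1.25, 0.427 and 0 CPM. Of 26 motor protein and actin regulator genes, these 2 met the 2-fold rule as higher (3.18% of all genes) and 0 as lower, 12 lay above both WT libraries (15.6% of all genes) and 1 below both (12.6%). The median difference was 1.21 from WT library 1 and 0.06 from WT library 2, and edgeR called 0.

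Other named higher genes had other functions. Slc15a2, a peptide transporter of the plasma membrane, stood at 52.8, 18.9 and 41.8 CPM in GFPhi, against 0.0649 and 6.5 in WT. It was 2.41 above WT library 2 on the log2 scale, and DESeq2 without WT library 1 called it (adjusted p = 2.58e-05). Mboat1, a lysophospholipid acyltransferase, stood at 28, 30.5 and 21.9 CPM in GFPhi, against 13.2 and 11.8 in WT, just inside the 2-fold limit with a smaller difference of 1.008 (DESeq2 without WT library 1, adjusted p = 6.84e-05). The predicted gene Gm19951, at 1.004, was the nearest inside, and Camkk2 (0.987) and Pfkfb1 (0.981) were the nearest outside. Fam20a, a pseudokinase of the secretory pathway, stood at 2.72, 4.85 and 2.56 against 0 and 0.414 CPM, at least 34.7-fold above a floor of 3 counts in WT library 1. Acpp, which encodes an acid phosphatase, stood at 2.06, 4.12 and 3.45 against 0.714 and 0.827 CPM. The groups did not overlap for either (adjusted p = 0.348 for each).

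Spp1, which encodes osteopontin, a secreted glycoprotein, stood at 2.94, 0.527 and 29.9 CPM in GFPhi, with no count in either WT library. Most of its mean came from GFPhi library 3. That mean was at least 329-fold above a floor of 3 counts in the WT libraries together. Without GFPhi library 3 the difference was 5.04 on the log2 scale in place of 6.54. Spp1 is also abundant in macrophages. GFPhi library 3 was the highest of the 5 libraries for 10 of the 14 myeloid list genes, among them the macrophage gene Adgre1 (7.91 CPM), but not for Lyz2, Itgam, Ctss or Cybb. WT library 2 held C1qb, another macrophage gene, at 10.7 CPM with no Spp1 count, beside 12.9 in GFPhi library 3; their part in the Spp1 level was not tested. Jun, an AP-1 subunit, stood at 86.4, 7.26 and 7.17 CPM in GFPhi, against 3.5 and 1.45 in WT. GFPhi library 1 was more than 10 times the other 2, and without it edgeR's log2 fold change was 1.55 in place of 3.78. GFPlow held Jun at 55.9, 4.22 and 5.25 CPM, so the library numbered 1 was far the highest there too. Gapdh, a glycolytic enzyme, stood at 29.4, 27.9 and 5.78 CPM against 2.53 and 4.45 CPM. Gapdh has many near-identical pseudogene copies, and its counts are uncertain where reads could not be placed.

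Of 508 genes tested that had no count in either WT library, 150 met the rule as higher. Such genes passed the filter on low counts only through GFPhi or GFPlow, so their number supports no direction. Il23r, a chain of the IL-23 receptor of T helper 17 cells, stood at 0.525, 1.34 and 5.61 CPM in GFPhi with no WT count, at least 73.8-fold above the floor over both WT libraries. Klrb1b, a lectin-like receptor, stood at 1.78, 0.659 and 2.57 CPM at least 49.5-fold above that floor. Il1r1, an IL-1 receptor, stood at 0.394, 0.47 and 1.76 CPM and was at least 25.9-fold higher. Il23r and Il1r1 were highest in GFPhi library 3. These 3 and the genes in the rest of this paragraph were chosen after their values were seen. Tmem176b, a membrane protein gene of several lymphoid and myeloid cells, stood at 17, 12.6 and 28.1 CPM in GFPhi, against 8.98 and 8.55 in WT. Its neighbour Tmem176a stood at 9.95, 6.72 and 19.1 against 5.06 and 5.33 CPM, again highest in GFPhi library 3. Lgals3, which encodes galectin-3, stood at 11.4, 19.4 and 26.1 CPM against 2.63 and 7.82 CPM. Lgmn, a lysosomal protease, stood at 9.8, 8.64 and 19.2 against 2.95 and 3.91 CPM. Each of these 4 genes had adjusted p = 0.348 by edgeR. Cd80, a ligand of CD28 and CTLA-4, stood at 4.74, 5.46 and 6.32 CPM in GFPhi, against 0.227 and 2.67 in WT. Tlr2, a receptor for bacterial lipoproteins, stood at 6.5, 6.21 and 5.87 against 0 and 2.77 CPM. For both, the gap to WT library 2 was just over 2-fold and WT library 1 lay far lower. Slc16a5, a monocarboxylate transporter, stood at 5.17, 2.78 and 4.41 against 0.778 and 1.21 CPM, and at 77.8, 60.5 and 54.7 CPM in GFPlow.

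Prdm1, which encodes Blimp-1 of effector Treg cells, stood at 12.4, 12.3 and 13.4 against 2.95 and 10.5 CPM. Of 15 other effector lineage factors none met the 2-fold rule, and the medians were 0.55 and 0.18. Above both WT libraries lay 2 (15.6% of all genes) and below both 1 (12.6%).

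Of the named higher genes, Mcm10 and Espl1 act in DNA replication and cell division, while none of the 30 genes on the cell cycle list met the 2-fold rule. Mcm10, which helps to start replication forks, stood at 15, 7.24 and 4.85 CPM in GFPhi, against 0.908 and 1.38 in WT (log2 fold change 2.97 ± 0.93, SE, adjusted p = 0.348 by edgeR). Espl1, the separase that splits sister chromatids, stood at 5.77, 2.22 and 1.85 CPM in GFPhi, against 0.162 and 0.758 in WT. For both genes GFPhi library 1 was the highest. Picked after their values were seen, 8 further genes of this kind met the 2-fold rule. Chaf1a, of the chromatin assembly factor that follows replication, stood at 13.1, 10.4 and 5.32 against 1.07 and 3.17 CPM. Exo1, a repair exonuclease, stood at 11.2, 6.92 and 5.58 against 2.92 and 2.43 CPM. Pold1, the catalytic subunit of DNA polymerase delta, stood at 24.1, 21.9 and 19.6 against 4.51 and 9.74 CPM. In these 3 genes GFPhi library 1 was highest and library 3 lowest. The same order held for Rad54l (homologous recombination), at 23.7, 10 and 5.46 CPM against 4.87 and 4.67, where GFPhi library 3 was close to both WT libraries. It held for Trip13 and for the mitotic kinase gene Ttk, at 16.7, 8.28 and 6.85 CPM against 4.77 and 4.41, and at 10.7, 6.42 and 4.17 CPM against 2.56 and 3.07. It also held for Gtse1, at 14.7, 11.2 and 8.63 against 1.07 and 5.43 CPM. Mybl2, a transcription factor of dividing cells, stood at 9.75, 4.65 and 4.98 against 1.95 and 2.14 CPM.

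On the list of 30 cell cycle genes edgeR called 0. All 3 GFPhi libraries lay above both WT libraries for 7 (15.6% of all genes) and below both for 0 (12.6%). The medians were 0.30 and 0.37 from WT libraries 1 and 2, beside 0.25 and -0.01 over all genes. The 7 were Mcm2, Mcm3, Mcm4, Mcm5 and Mcm6, which encode 5 subunits of the replicative helicase, and Rrm1 and Rrm2, the subunits of ribonucleotide reductase. Mcm2 stood at 122.4, 107.5 and 92 CPM in GFPhi, against 36.8 and 70 in WT. Mcm4 stood at 180.6, 179.6 and 162.4 against 66.4 and 125.0 CPM. Mcm5 stood at 134.7, 96.4 and 63.9 against 33.4 and 63.8 CPM, so GFPhi library 3 was level with WT library 2. Rrm2 stood at 144.9, 58 and 60 CPM against 49.2 and 41.1 CPM, with GFPhi library 1 far above the rest. The proliferation marker Mki67 overlapped between the groups, at 95.7, 61.2 and 31.3 CPM in GFPhi and 68.4 and 53.7 in WT. So did Top2a, a topoisomerase of dividing cells, at 174.3, 91.9 and 57.3 against 95.3 and 70.4 CPM. GFPhi library 1 was the highest of the 3 for 30 of the 30 genes. The list summed to 2823, 2024 and 1518 CPM in GFPhi and to 2076 and 1616 CPM in WT, so GFPhi library 3 was the lowest of the 5. Without GFPhi library 3, 13 genes lay above both WT libraries in place of 7. Without WT library 2, 11 genes met the 2-fold rule as higher and 7 as lower. In bulk RNA, a change in the share of dividing cells and a change in RNA per cell cannot be told apart.

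Genes of the response to T cell receptor signals lay on both sides of WT. Of 25 on that list, 2 met the 2-fold rule as higher (Jun and Ier3) and 0 as lower, 7 lay above both WT libraries and 2 below both, beside 3.18%, 15.6% and 12.6% of all genes. The medians were 0.55 and 0.16. Nr4a1, an orphan nuclear receptor that tracks receptor signal strength, stood at 48.7, 30.9 and 25.8 CPM in GFPhi, against 17.7 and 23.1 in WT. Zfp36, which destabilises cytokine mRNAs, stood at 106.8, 78.8 and 82.7 against 38.8 and 59.1 CPM, and Junb at 477.6, 201.9 and 197.8 against 37.5 and 175.9 CPM. As with Jun, GFPhi library 1 was the highest for all 3. GFPlow library 1 was also the highest of its group for Junb (377.5, 143.2 and 150.6 CPM) and Zfp36 (157.3, 127.4 and 106.0 CPM). For Nr4a1 it was the lowest (13.8, 16.6 and 17.7 CPM). Egr3, a zinc finger factor induced by the receptor, lay the other way, at 12.4, 10.6 and 10.9 CPM in GFPhi and 25.1 and 18.3 in WT (adjusted p = 0.348). Nr4a2 did too, at 4.74, 3.39 and 4.41 against 15.1 and 7.24 CPM. Ier3, an immediate early gene, stood at 1.26, 0.564 and 0.463 against 0 and 0.0517 CPM.

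No member of the Treg identity list met the 2-fold rule in either direction (21 tested, 0 called). Of these, 1 lay above both WT libraries (15.6% of all genes did) and 4 below both (12.6%). The median difference was 0.65 from WT library 1 and -0.16 from WT library 2. Ecm1, a secreted matrix protein gene, was the 1 above, at 165.1, 212.1 and 190.3 CPM in GFPhi and 34.7 and 147.8 in WT. Ikzf2, which encodes Helios, a zinc finger factor of Treg cells, stood below both WT libraries at 959.4, 928.6 and 931.8 against 2785.0 and 1148.4 CPM. Plagl1, a zinc finger gene, stood at 16.2, 15.7 and 7.06 against 53.5 and 18.1 CPM. For Ikzf2 and Plagl1 the gap to WT library 2 was small (-0.29 and -0.57 on the log2 scale) and that to WT library 1 large (-1.57 and -2.14). On the naive or central T cell list (18 tested) none met the rule, with medians of 0.02 and -0.04. Above both lay 3 and below both 3, beside the same shares of all genes. Id3, an inhibitor of E proteins, stood at 393.3, 363.3 and 339.8 against 836.4 and 444.0 CPM. Igfbp4, which binds insulin-like growth factors, stood at 245.7, 265.5 and 196.1 against 52.5 and 176.9 CPM.

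On the other lists few members met the 2-fold rule, which 3.18% of all genes met as higher and 1.89% as lower, with 15.6% above and 12.6% below both WT libraries. In the cytotoxic granule list Gzmb was the 1 of 15 (medians 0.42 and 0.05), and Fasl, a death ligand, lay close to the limit. It stood at 20.4, 25.6 and 24.8 CPM in GFPhi and 6.29 and 13.3 in WT (log2 fold change 1.26 ± 0.32, SE, adjusted p = 0.348). In the IL-2 and STAT5 list 0 of 20 met the rule, 6 lay above both WT libraries and 4 below both (medians 0.51 and 0.06). Socs3, a feedback inhibitor of cytokine signals, stood at 37.2, 39.7 and 37.2 against 9.08 and 23 CPM, and the survival kinase gene Pim2 at 87.2, 78.1 and 61.2 against 13.3 and 55.2 CPM. In the interferon-stimulated list 0 of 30 met it, and Isg15, a ubiquitin-like protein gene, was the 1 above both, at 17.5, 11.9 and 29.6 against 5 and 9.5 CPM (medians 0.31 and 0.15). In the cholesterol synthesis list 0 of 22 met it, 8 lay above both and 1 below both (medians 0.31 and 0.18). Insig1, which retains the sterol sensor in the endoplasmic reticulum, stood at 21.7, 28.2 and 20.7 against 5.87 and 13.8 CPM, and Dhcr7, the enzyme of the last step, at 22.8, 19.5 and 18.2 against 3.31 and 14.5 CPM. In the apoptosis list 0 of 18 met it, with 6 above both and 6 below both (medians -0.10 and 0.07). The survival gene Bcl2l1 stood at 31.8, 28.6 and 25.9 against 6.68 and 22.7 CPM. Among 20 genes common to T cells 0 met it, with 1 above both and 4 below both (medians 0.07 and -0.02). Cd3d, of the T cell receptor complex, stood at 1052.3, 1168.2 and 1124.0 against 4581.1 and 1244.2 CPM, and Cd2, an adhesion receptor, at 1171.6, 1364.0 and 1387.2 against 2049.0 and 1460.2 CPM.

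As with the motor protein list, the medians of 3 further lists lay far from WT library 1 and near WT library 2. Of 72 cytoplasmic ribosomal protein genes, 54 lay below both WT libraries (12.6% of all genes did) and 0 met the 2-fold rule. Their median difference was -2.02 from WT library 1 and -0.11 from WT library 2. Rpl15, of the large subunit, stood at 283.2, 297.4 and 266.7 CPM in GFPhi, against 1109.5 and 467.7 in WT, and Rpl23a at 29.6, 36.4 and 33.4 against 179.6 and 46.2 CPM. Of 48 nuclear genes of oxidative phosphorylation, 21 lay below both (12.6% of all genes) and 3 above both (15.6%). The rule was met by 0, and the medians were -1.93 and -0.04. Ndufa7, a subunit of complex I, stood at 233.7 CPM in GFPhi (mean, n = 3) against 1056.9 and 274.5 CPM, and Ndufb3 of the same complex at 136.6, 142.2 and 150.5 against 725.5 and 163.6 CPM. Of 20 glycolysis genes, 7 lay above both (15.6% of all genes) and 1 below both (12.6%). Gapdh alone met the rule, and the medians were 1.30 and 0.18. Pkm, the last enzyme of glycolysis, stood at 817.5, 735.0 and 679.3 against 110.3 and 540.0 CPM. WT library 1 had more than double the ribosomal protein and mitochondrial share of any other library, and the part of this in these lists was not tested.

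**Figure D3:**
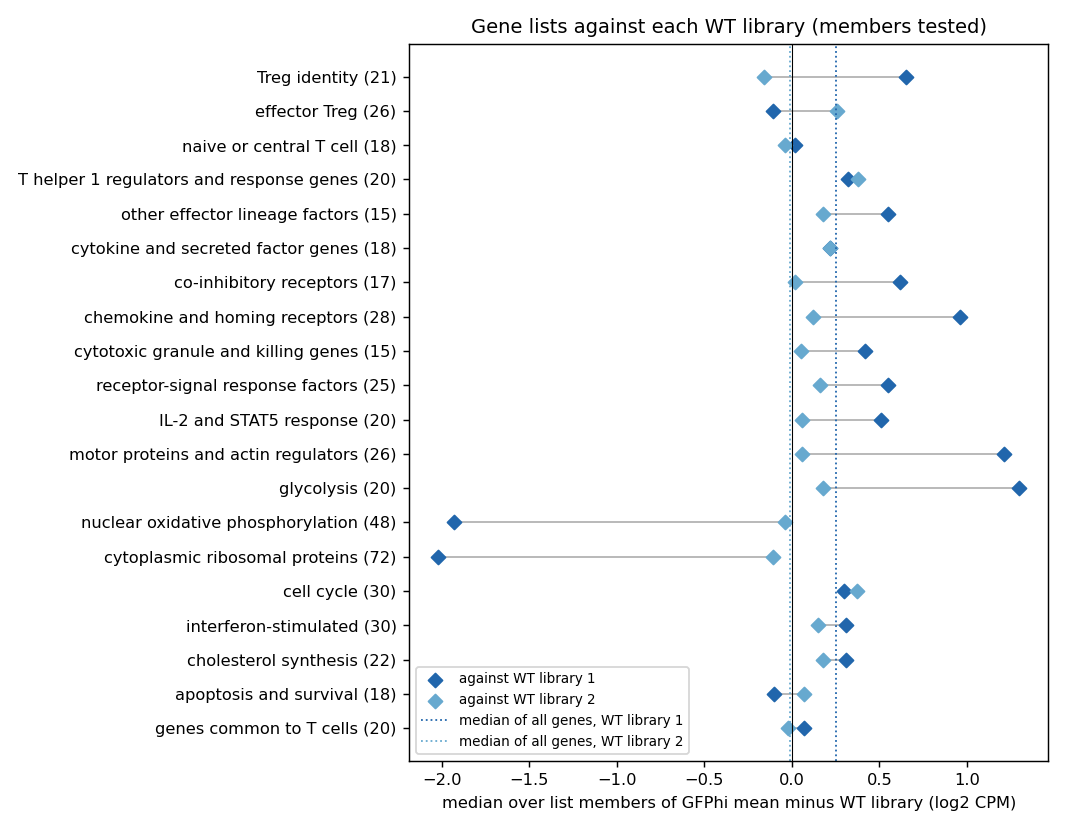
Median difference over the tested members of the 20 biology lists (number of members in brackets), GFPhi minus WT library 1 (dark) and minus WT library 2 (light), in log2 CPM, with the median of all genes dotted. The 2 markers lie close together for several lists, such as cytokine genes (0.22 and 0.22), T helper 1 (0.32 and 0.38), cell cycle (0.30 and 0.37) and genes common to T cells (0.07 and -0.02), and furthest apart for ribosomal proteins (-2.02 and -0.11).

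The lower genes that met the 2-fold rule included many outside the protein-coding class. At 2 CPM or more, 44% of the 50 lower genes were protein-coding, against 90.6% of the 85 higher genes and 84.4% of all genes at that level. At any level the shares were 37% of the 357 lower genes, 61.1% of the 599 higher genes and 67.4% of all tested. The 2 with the largest differences, Ppbp and Pf4, are chemokine genes of platelets. Ppbp stood at 0.15, 0 and 0 CPM in GFPhi, against 26.7 and 1.26 in WT, and Pf4 at 0, 0 and 0.0556 against 13.1 and 0.81 CPM. With Gp9 and Gng11, 4 of the 6 tested genes of the platelet list met the 2-fold rule as lower (1.89% of all genes did) and 0 as higher. Gp9 had no reads outside WT (20 and 43 there). It passed the filter on low counts only through WT and could only be lower. Pf4 leaned on WT too (404 and 47 reads, beside 0, 0 and 3 for GFPhi and 0, 67 and 0 for GFPlow). The platelet count, set beside the share of all genes, therefore supports no direction. The list summed to 25.1, 35.0 and 28.8 CPM in GFPhi and to 63.8 and 30.7 CPM in WT, and Itgb3, which T cells also express, made up 24.7, 34.4 and 28.4 of it in GFPhi and 17.6 and 26.7 in WT. Lyz2, the lysozyme of myeloid cells, stood at 1.18, 0.245 and 4.93 CPM in GFPhi, at 6.84 and 27 CPM in WT, and at 15, 0.223 and 197.0 CPM in GFPlow. It varied widely within each group and was 1 of 14 tested myeloid genes that met the rule. The myeloid list summed to 510.8, 563.2 and 671.6 CPM in GFPhi and to 1531 and 743.3 CPM in WT, most of it Ctss, with Itgam from 0 to 0.15 in GFPhi, against 1.04 and 0.0689 CPM in WT. The part of platelet or myeloid RNA in other differences was not tested.

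Of lower transcripts with clone names, picked after their values were seen, the X-linked protein-coding 3830403N18Rik stood at 1.97, 0.207 and 2.04 CPM in GFPhi, against 13.8 and 10.5 in WT. Its differences were -3.78 and -3.39 on the log2 scale (adjusted p = 0.348 by edgeR). B930036N10Rik, annotated as antisense, stood at 1.03, 0.659 and 0.037 against 4.31 and 4.05 CPM. Named lower genes had smaller differences. Ang, a secreted ribonuclease, stood at 1.31, 1.34 and 1.48 CPM in GFPhi, against 5.51 and 3.65 in WT (log2 fold change -1.73 ± 0.53, SE, adjusted p = 0.348). Rmdn2, a microtubule regulator, stood at 1.2, 1.13 and 1.3 against 4.61 and 2.96 CPM, with 5.34, 4.69 and 5.58 CPM in GFPlow. Ly6k, of the Ly6 surface proteins, stood at 5.19, 8.3 and 9.54 against 23.2 and 18.4 CPM. None of these overlapped between GFPhi and WT. Gsta3, a glutathione transferase gene, stood at 2.01, 4.82 and 2.13 against 7.88 and 7.31 CPM. Gpr22, an orphan receptor, stood at 2.64, 2.13 and 2.72 against 6.23 and 5.5 CPM, and Eid2, a transcriptional repressor, at 1.33, 1.54 and 1.19 against 3.44 and 3.12 CPM. For these 3 genes the WT libraries lay close together. Zfp704 stood at 0.675, 1.05 and 1.43 against 4.67 and 2.55 CPM, Tctex1d2, a dynein light chain, at 2.19, 1.6 and 1.63 against 9.41 and 3.96 CPM, and Bloc1s6os, annotated as an antisense RNA, at 1.33, 1.84 and 1.15 against 9.15 and 3.31 CPM. The strand setting of the counting is not given in the sources used here, so reads of Bloc1s6os and of its partner gene cannot be told apart. Chosen after its values were seen, Esr1, the oestrogen receptor alpha gene, stood at 2.44, 2.11 and 2.28 against 4.83 and 4.72 CPM. Ascl2, a helix-loop-helix factor, was the nearest inside the limit (-1.011), and the predicted gene Gm2800 (-0.995) the nearest outside.

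**Figure D4:**
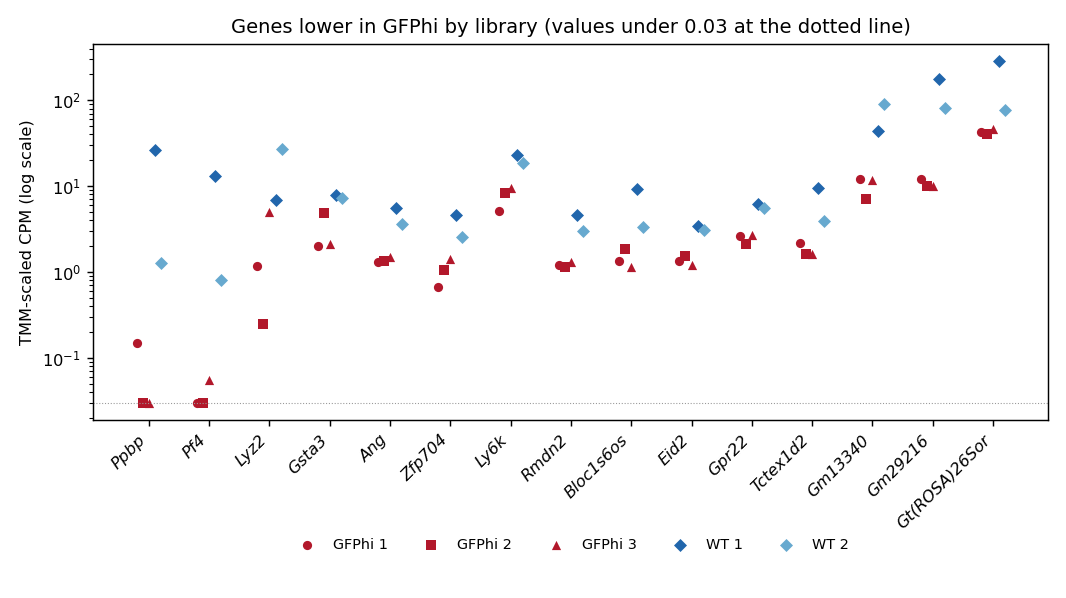
TMM-scaled CPM on a log axis for the 12 named lower genes with the largest differences and for 3 further transcripts, by library (red, GFPhi libraries 1 to 3; blue, WT libraries 1 and 2). Every red point lies below both blue points, and for Ppbp and Pf4 the WT libraries themselves are far apart (26.7 and 1.26, 13.1 and 0.81 CPM).

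Of the 50 lower genes at 2 CPM or more, 25 were non-coding RNAs or unclassified transcripts and 2 were pseudogenes. Gm13340, annotated as an unprocessed pseudogene, stood at 12.2, 7.02 and 11.9 CPM in GFPhi, against 44.1 and 90.6 in WT, and DESeq2 without WT library 1 called it (log2 fold change -3.13 ± 0.43, SE, adjusted p = 1.62e-09). A second unprocessed pseudogene, Gm29216, stood at 12.1, 10.1 and 9.91 against 175.4 and 82.2 CPM, and at 38.9, 73.4 and 13 CPM in GFPlow. Pseudogenes can share reads with the genes they copy, so both are uncertain. Gt(ROSA)26Sor, the transcript of the Rosa26 locus where many transgenes are placed, annotated as antisense, stood at 42.8, 40.2 and 45.9 CPM in GFPhi, against 286.4 and 77.7 in WT. GFPlow, of the same genotype as GFPhi, held 42.4, 45.8 and 47.1 CPM. The labels do not give the insertion site of FSF-TIM-3. The gap to WT library 2 was -0.86 on the log2 scale, under 2-fold, and DESeq2 without WT library 1 called it (adjusted p = 2.21e-05). Sat1, of polyamine breakdown, stood at 324.4, 341.0 and 320.9 against 932.0 and 403.7 CPM, and Rgs10, a regulator of G protein signalling, at 345.2, 334.2 and 302.7 against 1156.5 and 454.8 CPM. DESeq2 without WT library 1 called these 2 as lower (adjusted p = 0.0434 and 0.0437). It also called Btbd18 as higher (adjusted p = 2.58e-05), whose reads came from GFPhi library 2 alone among the 5 libraries, at 1.58 CPM, and without that library its log2 fold change by edgeR was 0.

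Markers of other cells were read beside these results. Of all genes 3.18% met the 2-fold rule as higher and 1.89% as lower. Of 9 tested B cell genes, 1 met the 2-fold rule as lower (Cr2, at 0.675, 1.52 and 0.463 against 3.47 and 2.12 CPM), and Pax5 had a value of 0 in all 5 libraries. Of 8 dendritic cell genes, 2 met it as higher: Batf3, at 0.562, 0.226 and 0.519 CPM with no WT count, and H2-Eb1, at 7.05, 2.33 and 3.07 against 0 and 1.31 CPM. Batf3 rested on 30, 12 and 28 reads. The dendritic gene Itgax was at 0 in all 5, and the list summed to 113.3, 136.7 and 150.7 CPM in GFPhi and to 152.9 and 108.8 in WT. Of 8 NK cell genes, Eomes and Klrk1 met it as higher, the latter at 0.262, 0.245 and 0.259 CPM with no WT count. Klrk1 rested on 14, 13 and 14 reads in GFPhi and stood at 4.11, 22.6 and 39.5 CPM in GFPlow. Ncr1 was at 0 in GFPhi libraries 1 and 3 and in WT library 2. The NK list summed to 7.05, 5.57 and 3.22 CPM in GFPhi and to 18.2 and 1.84 CPM in WT. Of 6 erythroid genes, Hbb-bs met it as lower (0, 0.339 and 1.07 against 1.26 and 1.34 CPM). The B cell list summed to 911.9 to 1113 CPM in GFPhi and to 775.3 and 1029 CPM in WT, and the erythroid list to at most 6.98 CPM in any of the 5 libraries. None of the 6 plasma cell, 2 CD8 T cell, 3 stromal and 1 neutrophil genes tested met it. H2-Ab1, an MHC class II gene of the dendritic list, lay above both WT libraries, at 10.9, 7.04 and 4.13 against 3.37 and 3.77 CPM. The next 4 genes overlapped between the groups. Ighm, the heavy chain of IgM, stood at 721.8, 840.1 and 941.1 CPM in GFPhi, against 611.6 and 818.4 CPM in WT, and Cd74, the invariant chain of MHC class II, at 116.3, 109.5 and 103.7 against 57.3 and 129.9 CPM. Pecam1, an adhesion molecule of endothelium and many blood cells, stood at 111.5, 112.8 and 98.2 against 35.1 and 105.9 CPM. Cd8b1, of the CD8 co-receptor, stood at 23.4, 22.4 and 18.9 against 37.7 and 15.9 CPM. Cd8a ran from 0 to 0.778 and Mmp9, a neutrophil protease, from 0.0172 to 1.98 CPM over the 5 libraries. Their part in the differences above was not tested.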

How the data were processed

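RNA of sorted mouse spleen cells was made into libraries with kits named SMART-Seq HT (cDNA) and Nextera XT (libraries), per the labels' protocols. The authors deposited 1 table of counts, whole numbers of reads per Ensembl gene without normalization, for 8 libraries. HISAT2 2.1.0, SAMtools 1.9, HTSeq 0.11.2, edgeR, R 4.0 and the build GRCm38 are named in the submitters' processing notes, without roles. Annotation and strand setting: not given in the sources used here. Of 54837 identifiers, 54808 matched GENCODE vM21 for symbols and coordinates.

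From the counts, edgeR 4.0.16 in R 4.3.3 kept 18851 genes (filterByExpr by group), scaled by TMM, and fitted 1 mean per group over all 8 libraries (robust quasi-likelihood, 5 residual degrees of freedom), two-sided, with Benjamini-Hochberg adjustment and a threshold of 0.05. A second fit gave each WT library its own mean (4 residual degrees of freedom), so that a lone library is assumed to vary like the others. Standard errors (SE) are the log2 fold change divided by the square root of F. Alternatives and plots used Python 3.11.15, DESeq2 1.42.0, matplotlib 3.10.9, limma 3.58.1 and pandas 2.3.3. The fit with 1 mean per group and the 2-fold rule were run on simulated counts. There WT library 1 was drawn around the same means as WT library 2, so that run does not cover a WT library that stands apart. Reads carry no molecular identifiers, so floors cover counting error only.

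The comparison, the 20 biology lists, the 10 lists of other cells and the rule for named genes were chosen with earlier results of these data known. Named were Havcr2, Foxp3, Tbx21, Il10, Cxcr6 and Myo1f, the 12 higher and 12 lower genes with the largest smaller difference at 2 CPM or more (without predicted genes, pseudogenes, receptor segments and sex-linked genes), up to 4 members of each biology list, or 2 given as values, for the other-cell lists the top 2 by abundance (some given here as list sums) with any past 2-fold, and up to 6 genes a side from DESeq2 without WT library 1. Other genes named were chosen after their values were seen. Some genes of the lists are not reported here. Alternatives were other scaling, filters, prior counts and folds, DESeq2, voom, a replicate block, a fit on the compared libraries alone, and each library left out. The replicate numbers of GFPhi and WT come from different mice by genotype and do not pair them.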

Additional observations from a re-analysis of the deposited data

How the results depend on the processing

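The number of genes called for GFPhi against WT stayed at 0 under median-of-ratios scaling, no scaling factor, a filter of 5 CPM in 2 libraries, only the libraries compared, no robust estimation and voom. It was 1 with no filter (Havcr2, adjusted p = 0.0253 by edgeR), 320 by DESeq2 and 72 by DESeq2 without WT library 1. With 1 library left out it ran from 0 to 8234, the latter without WT library 2. Against WT library 2 alone it was 2 with only the libraries compared (Havcr2 and Gm29216), and 0 to 1 with 1 library left out. Against WT library 1 alone the calls ran from 7512 to 8250 with 1 library left out. With the replicate number as a block, 0 genes were called against WT, 7073 against WT library 1 and 4 against WT library 2 (Havcr2, Kdm5d, Ddx3y and Xist, of which the last 3 are sex-linked). GFPhi and WT share only a number: deviations from the group means correlated at 0.022 between GFPhi 1 and WT 1 and at -0.043 between GFPhi 2 and WT 2. GFPhi and GFPlow of the same M number correlated at 0.067, 0.066 and 0.149, and both M3 libraries held Xist (236.6 and 183.8 CPM) without Ddx3y. The labels do not say that a number is 1 mouse, and the fit without the block takes these libraries as independent.

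The counts past 2-fold against both WT libraries, 599 higher and 357 lower, were 378 and 190 with a prior count of 10, 939 and 674 at 1.5-fold, 59 and 16 with 5 CPM in 2 libraries, 288 and 109 with every GFPhi library past 2-fold, and 85 and 50 at 2 CPM or more. With no scaling factor they were 661 and 266, and with 1 library left out they ran from 717 to 5447 and from 437 to 4171. The 2 CPM counts, repeated as alternatives added after seeing the data, were 33 and 14 with every GFPhi library past 2-fold, 264 and 193 at 1.5-fold, 105 and 26 with no scaling factor, 156 and 73 without WT library 1 and 3081 and 2378 without WT library 2. The lower count was 83 without GFPhi library 1 and 76 without GFPhi library 3. The cause of these changes was not tested, beyond the fewer libraries or genes each setting leaves. For 111 of the genes named, 1860 fold changes were recomputed, and 1752 kept their direction and their side of the threshold. The other 108 kept their direction and passed, most of them in fits that leave 1 WT library. Among the genes not recomputed were 3830403N18Rik and B930036N10Rik. Within the 111 genes no direction reversed, and Btbd18, counted as kept, had a fold change of 0 without GFPhi library 2. Of 1776 recomputed differences from each WT library, 143 moved by more than the spread between the GFPhi libraries. Of 1080 list counts 202 moved by over 1.5 times. Median differences of all genes from WT libraries 1 and 2 were 0.25 and -0.01, and 0.82 and 0.00 with no scaling factor, so values against WT library 1 carry that shift. With 3 and 2 libraries a group and 1 WT library of low complexity, genes under 2 CPM rest on few reads.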

Other observations

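Further genes that met the 2-fold rule against both WT libraries are given as values. Trdc, the constant region of the T cell receptor delta chain, stood at 1.01, 2.45 and 4.2 CPM in GFPhi, at 9.5 and 4.53 CPM in WT and at 4.5, 11.2 and 8.66 CPM in GFPlow, so GFPhi library 3 lay just below WT library 2. Snai3, a zinc finger repressor, stood at 2.38, 6.1 and 6.61 CPM in GFPhi, at 0 and 1.38 CPM in WT and at 7.21, 6.15 and 6.55 CPM in GFPlow. Adam8, a membrane metalloproteinase gene, stood at 7.08, 4.23 and 4.93 CPM in GFPhi, at 0 and 1.83 CPM in WT and at 1.53, 2.68 and 2.01 CPM in GFPlow. All were chosen after their values were seen. Eif2s3y, a second Y-linked gene, stood at 8.89 CPM in WT library 2 and at 0.037 CPM in GFPhi library 3, whose Xist levels were alike (242.1 and 236.6 CPM). The source of the Y-linked counts in WT library 2 was not tested.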
